A study of Gallus gallus with 16 samples.

Results

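The Toll-like receptor (TLR) genes and LY86 were followed in chicken liver. The set holds LY86 and every gene whose array symbol begins with TLR and a digit, which gave 9 genes of the 11528 that carry 1 symbol on the array: LY86, TLR1A, TLR1B, TLR2, TLR2A, TLR3, TLR4, TLR5 and TLR7. Where a gene had several features the one with the highest mean was used, and all 9 genes stayed in the test, since no filter on dim signals was applied. A further 2 features that pair TLR15 with a neighbouring symbol were not used. The samples were livers of 16 male broiler chickens (Gallus gallus, a fast-growing meat type) at day 21, 4 birds on each of the diets that the labels call E, F, H and A. The series title names a herbal essential oil blend and saponins as feed additives. Which supplement, if any, each letter received is not given in the labels, and setting the other diets against diet A follows the alphabet alone. All signals are on a log2 scale, on which a difference of 1 is a 2-fold difference.

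Toll-like receptors are membrane proteins of innate immune cells that recognise conserved molecules of microbes and pass the signal through adaptor proteins to NF-kappaB and interferon regulatory factors, which switch on cytokine genes. In the liver they are known above all from Kupffer cells, the resident macrophages that meet bacterial products arriving from the gut in portal blood. TLR4 recognises bacterial lipopolysaccharide together with the small secreted protein LY96. LY86 is the close relative of LY96 and binds CD180, a TLR-like receptor without the signalling domain of the TLRs. TLR2 pairs with members of the TLR1 group to bind bacterial lipopeptides, TLR5 binds flagellin, TLR3 binds double-stranded RNA and TLR7 single-stranded RNA. In birds the TLR1 and TLR2 genes are duplicated, and TLR1A and TLR1B, like TLR2A and TLR2, lie next to each other in the chicken genome (RefSeq gene order of assembly GRCg7b). How far the probes of such a duplicated pair tell its copies apart was not tested.

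Median signals of the arrays lay between 6.11 and 6.21. The arrays of 2 diet H birds, replicates 3 and 4, were unlike all others, with mean correlations of 0.948 and 0.946 with the other arrays, against at least 0.966 for each of the other 14. They also belonged to the arrays with the narrowest spread of signals (SD over all features 2.11 on each), as did diet E replicate 1 (2.10) and diet F replicate 4 (2.12). Differences between diets H and A are therefore given with and without these 2 birds. Liver RNA comes from all cells of the tissue together, so fewer immune cells and less RNA per cell cannot be told apart. Of 28 listed markers of macrophages and Kupffer cells, 10 had a feature with 1 symbol. All 10 averaged above 4.31, the 20th percentile of all signals, as did most genes, since 1437 of all 11528 averaged below it. The 10 included the scavenger receptor MARCO (10.56), the complement gene C1QC (11.43) and the phosphatidylserine receptor TIMD4 (9.86), while TREM2 averaged 4.98. Other defining markers such as CSF1R and CD163 were not analysed here.

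LY86 was lower in every diet H bird than in every diet A and diet F bird. Its signals were 11.01, 11.04, 10.76 and 10.46 in diet H livers, against 11.41, 11.15, 11.55 and 11.33 in diet A livers. All 4 diet H birds thus lay below all 4 diet A birds. Signals in diet E were 11.04, 10.92, 11.17 and 11.23, and those in diet F were 11.64, 11.12, 11.24 and 11.26. Diet H also lay wholly below diet F, while diets E and A overlapped. Birds with no overlap in the lower direction were found for 0.875% of the 20804 features between diets H and A and for 0.644% between diets H and F, and LY86 was the only one of the 9 genes among them in either comparison. The 9 genes were chosen with earlier results of these data known. The lack of overlap for LY86 is therefore no independent result, and the shares are given as a description. None of the 9 was free of overlap in the other comparisons or in the higher direction. The shares of all features there were 1.20% lower and 1.49% higher for diet E minus diet A, 0.663% and 1.18% for diet F minus diet A, 0.615% and 0.538% for diet E minus diet F, 0.404% and 0.630% for diet H minus diet E, and 1.27% and 0.495% in the higher direction for diet H minus diet A and diet H minus diet F.

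The LY86 mean was 11.09 ± 0.14 in diet E, 11.31 ± 0.22 in diet F, 10.82 ± 0.27 in diet H and 11.36 ± 0.17 in diet A (SD, n = 4 each). Diet H minus diet A was -0.54 ± 0.16 (SE), a 1.46-fold lower signal with a 95% interval of -0.89 to -0.20, and adjusted p = 0.521 in limma over all 20804 features. Diet H minus diet F was -0.50 ± 0.16 with adjusted p = 0.971, and diet H minus diet E was -0.28 ± 0.16 with adjusted p = 0.942. None of these passed the threshold of 0.05. Among neighbours in the order of means, A and F differed by 0.05, F and E by 0.22 and E and H by 0.28, each less than 2 standard errors.

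**Figure D1:**
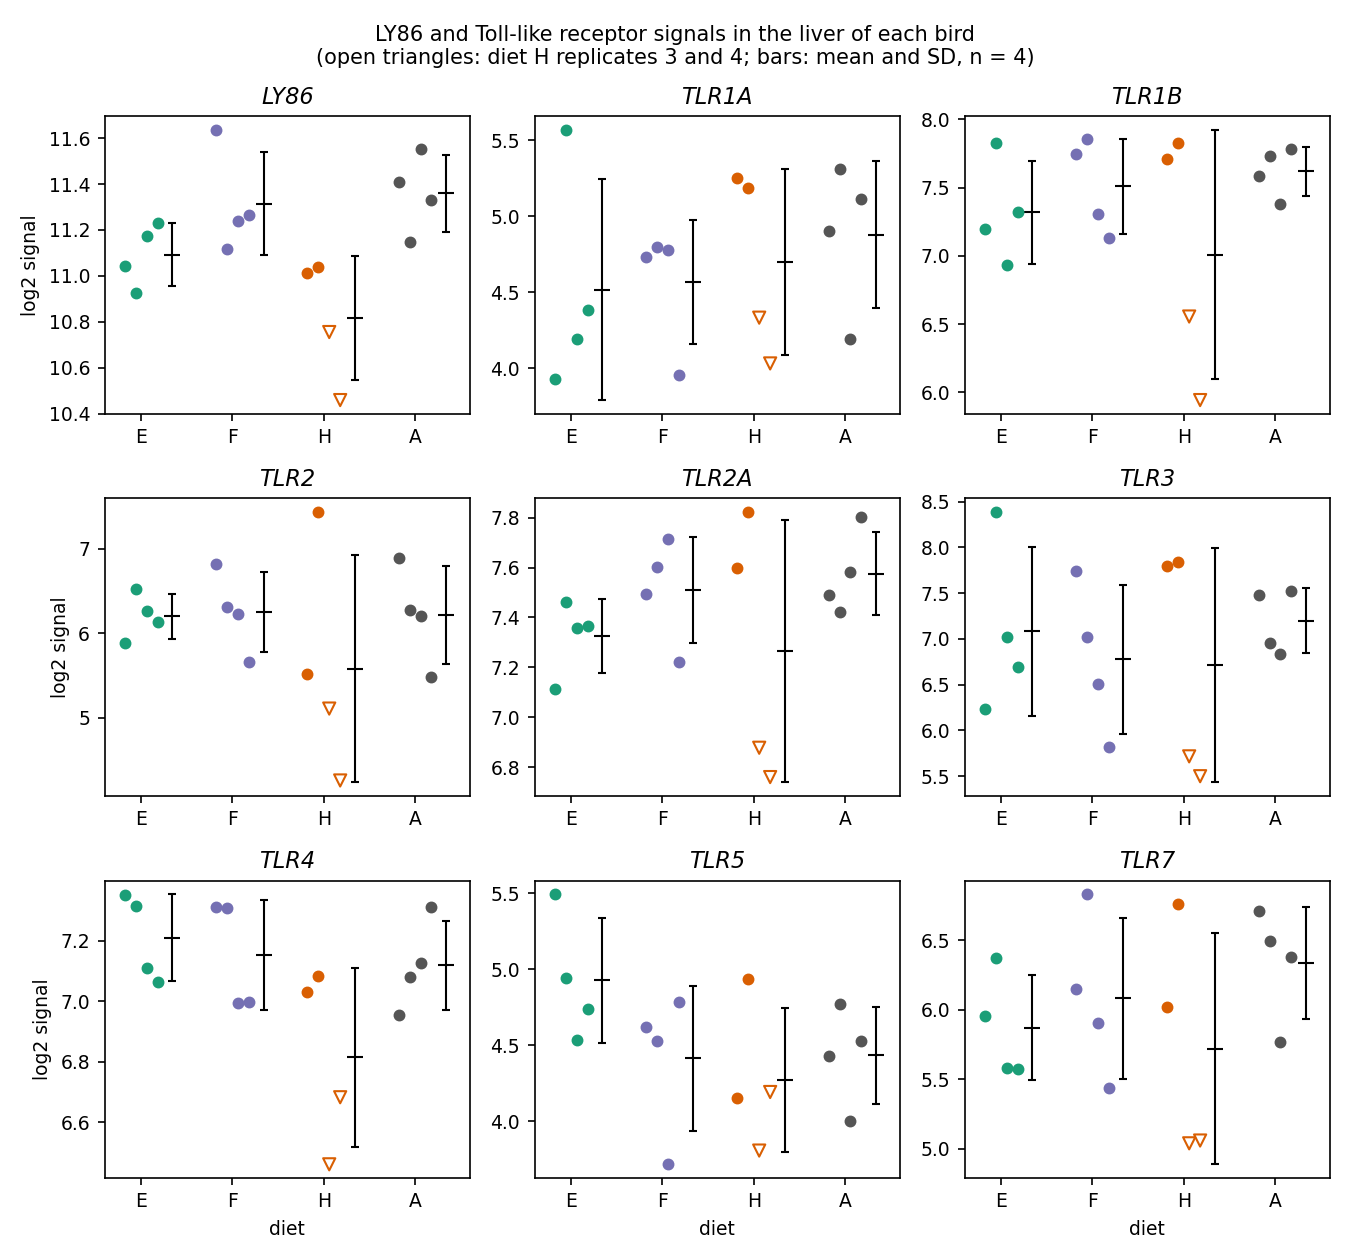
Log2 signal (vertical axes) of each bird in diets E, F, H and A (horizontal axes), 1 panel per gene; points are birds, open triangles are diet H replicates 3 and 4, and bars are the mean and SD of 4 birds. The LY86 signals of all 4 diet H birds (10.46 to 11.04) lie below those of all 4 diet A birds (11.15 to 11.55). The open triangles are the 2 lowest of the 16 birds in each TLR panel but TLR1A and TLR5.

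The lower LY86 signal in diet H was smaller, but kept its sign, when both arrays that stood apart were left out. Diet H replicates 1 and 2 averaged 11.03, still below each diet A and each diet F bird, but how many of all features show such a layout of 2 birds was not counted. The difference from diet A was then -0.33 ± 0.17 and from diet F -0.29 ± 0.17, with adjusted p = 1 and adjusted p = 0.818 in limma. Against diet E only -0.07 ± 0.17 remained. Unexplained numbers in the sample titles divide the birds of each diet into 2 up to 25 and 2 beyond it. Diet H minus diet A was -0.25 for LY86 in the lower block of numbers and -0.83 in the upper block, to which replicates 3 and 4 belong (2 birds per diet in each).

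TLR4, the lipopolysaccharide receptor, read 7.03, 7.08, 6.46 and 6.68 in diet H, against 6.96, 7.08, 7.13 and 7.31 in diet A. Diet H replicates 3 and 4 held the lowest TLR4 signals of all 16 birds, and replicates 1 and 2 lay within the diet A range. The receptor read 7.35, 7.31, 7.11 and 7.06 in diet E and 7.31, 7.31, 6.994 and 6.996 in diet F, both of which overlapped diet A. Means were 7.21 ± 0.14 in diet E, 7.15 ± 0.18 in diet F, 6.81 ± 0.30 in diet H and 7.12 ± 0.15 in diet A (SD, n = 4 each). Diet H minus diet A was -0.30 ± 0.16 (adjusted p = 0.521), diet H minus diet E was -0.40 ± 0.16 (adjusted p = 0.942) and diet H minus diet F was -0.34 ± 0.16 (adjusted p = 0.971), all from limma. Without diet H replicates 3 and 4 these 3 differences were -0.06 ± 0.16, -0.15 ± 0.16 and -0.09 ± 0.16. The means of diets E, F and A lay within 0.09 of each other, less than 1 standard error. In the lower block of title numbers diet H minus diet A was 0.04 for TLR4 and in the upper block -0.65. For diet E minus diet A these block values were 0.32 and -0.13, and for diet F minus diet A 0.29 and -0.22, so the direction for TLR4 was opposite in the 2 blocks in all 3 comparisons with diet A.

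The receptors for nucleic acids varied more from bird to bird than between diet means. TLR3 ranged over 2.89 log2 units, with 7.79, 7.84, 5.72 and 5.50 in diet H, against 7.48, 6.95, 6.84 and 7.52 in diet A. The other birds read 6.23, 8.39, 7.01 and 6.69 in diet E and 7.75, 7.02, 6.51 and 5.82 in diet F. Diet H thus held both the lowest TLR3 signals and, in replicates 1 and 2, signals above every diet A bird. The share of all features with 2 such birds was not counted. The diet H mean of TLR3 was 6.71 ± 1.28 and the diet A mean 7.20 ± 0.35 (SD, n = 4 each), a difference of -0.49 ± 0.56 (SE) that became 0.62 ± 0.53 without the 2 birds. TLR7 read 6.02, 6.76, 5.04 and 5.06 in diet H, against 6.71, 6.50, 5.77 and 6.38 in diet A. Its difference was -0.62 ± 0.37, and 0.05 ± 0.36 without replicates 3 and 4.

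Among the lipopeptide receptors, diet H replicates 3 and 4 were the lowest of the 16 birds for TLR1B, TLR2A and TLR2, but not for TLR1A. TLR1B read 7.71, 7.83, 6.56 and 5.94 in diet H, against 7.59, 7.73, 7.38 and 7.78 in diet A, and TLR2A read 7.60, 7.82, 6.88 and 6.76 in diet H, against 7.49, 7.42, 7.58 and 7.80 in diet A. In both genes replicates 1 and 2 lay within or above the diet A range. Diet H minus diet A was -0.61 ± 0.34 for TLR1B and -0.31 ± 0.21 for TLR2A, and 0.15 ± 0.25 and 0.14 ± 0.17 without the 2 birds. TLR2 spanned 3.18 log2 units, the widest of the 9 genes. Both ends belonged to diet H, whose replicate 4 read 4.26 and whose replicate 2 read 7.44, against 5.49 to 6.89 in diet A. Its difference was -0.63 ± 0.49, and 0.26 ± 0.46 without the 2 birds. TLR1A, a dim feature with 5 arrays under the 20th percentile, read 4.03 to 5.25 in diet H, against 4.20 to 5.31 in diet A, a difference of -0.18 ± 0.36, and 0.34 ± 0.40 without the 2 birds. The 2 features of TLR1B correlated at r = 0.92 over the 16 arrays.

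TLR5, the flagellin receptor, had its highest mean in diet E. Its signals were 5.50, 4.94, 4.54 and 4.74 in diet E, against 4.43, 4.77, 4.00 and 4.53 in diet A, which overlap. In diet F the gene read 4.62, 4.53, 3.72 and 4.79, and in diet H 4.15, 4.94, 3.81 and 4.19. TLR5 also fell under the 20th percentile on 5 arrays. Diet E minus diet A was 0.50 ± 0.28 (adjusted p = 0.9997), diet H minus diet E was -0.66 ± 0.28 (adjusted p = 0.942) and diet H minus diet A was -0.16 ± 0.28 (adjusted p = 0.782), from limma. Without diet H replicates 3 and 4, diet H minus diet E was -0.38 ± 0.33 and diet H minus diet A was 0.11 ± 0.33.

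**Figure D2:**
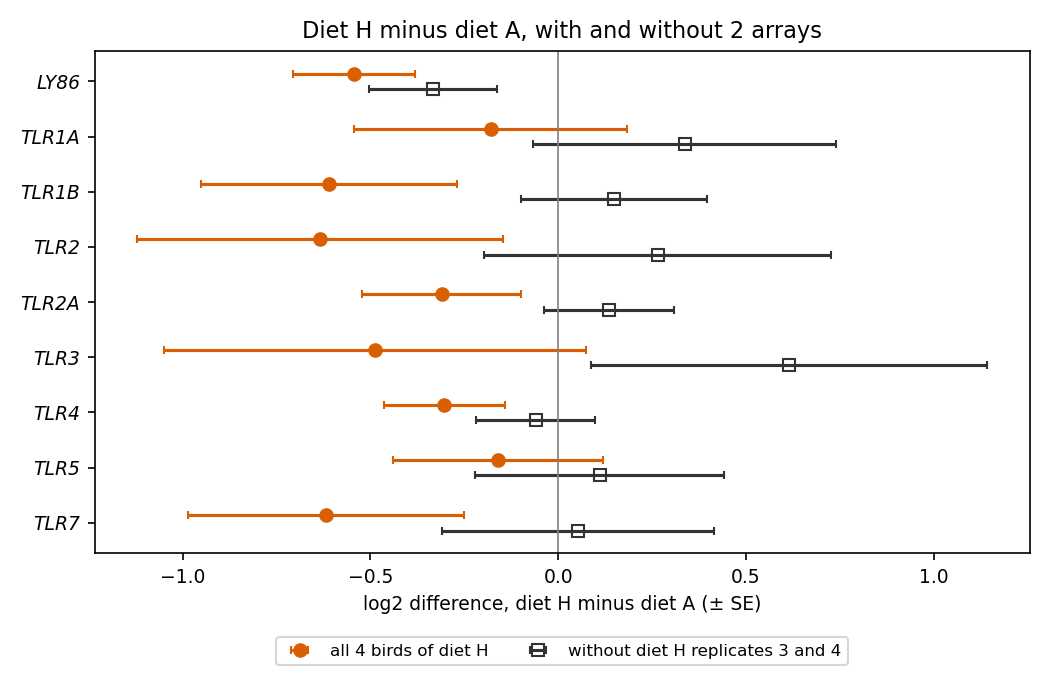
Log2 difference of diet H minus diet A (horizontal axis, with SE) for each of the 9 genes; filled circles use all 4 diet H birds and open squares leave out diet H replicates 3 and 4. With all birds every difference is below 0 (-0.16 to -0.63), and without the 2 birds LY86 (-0.33) and TLR4 (-0.06) stay below 0 while the other 7 lie between 0.05 and 0.62.

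Counted over the set, limma called 0 of the 9 genes in any of the 6 comparisons of diets or in the F test over all 4, after Benjamini-Hochberg adjustment over all features. The background was the same, at 0% of 20804 features in each. At an unadjusted p under 0.05 there was 1 of the 9 genes (LY86) in diet H minus diet A, where 8.21% of all features lay under that mark. The F test had 1 (LY86) with 2.13% of features, diet H minus diet F 1 (LY86) with 2.60%, and diet H minus diet E 2 (TLR4 and TLR5) with 2.72%. None of the 9 lay under it in diet E minus diet A (2.03% of features), diet F minus diet A (1.68%) or diet E minus diet F (1.35%). The comparisons that involve the same diet share its birds.

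For diet H minus diet A the median over the 9 genes was -0.49, with 9 of 9 lower, against a median of 0.007 over all 11528 genes, of which 5679 were lower. Without diet H replicates 3 and 4 the median of the 9 genes was 0.14 with 2 of 9 lower (LY86 and TLR4), against 0.003 over all genes. In diet E minus diet A the median was -0.25 and in diet F minus diet A -0.07, each with 7 of 9 lower. Over all 11528 genes the medians there were 0.009 and 0.015, with 5574 and 5449 genes lower. With all birds, diet H had the lowest mean of the 4 diets in 8 of the 9 genes, TLR1A being the exception, where 31.0% of all features had their lowest mean in diet H. Without the 2 birds this held for LY86 and TLR4 alone, with 35.9% of all features.

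Much of the spread in the set lay in single birds. Diet H replicates 3 and 4 were the lowest 2 of the 16 birds in 7 of the 9 genes, all but TLR1A and TLR5, a layout found in 15.2% of all features. Relative to the gene's mean over 16 birds, diet H replicate 4 lay at -1.81 for TLR2, -1.44 for TLR3 and -1.42 for TLR1B. The median deviation of the 9 genes was -0.70 in diet H replicate 3 and -0.69 in replicate 4, against 0.02 in replicate 1 and 0.46 in replicate 2. In diet A it ran from 0.02 to 0.38. Outside diet H the lowest medians were those of diet F replicate 4 (-0.23) and diet E replicate 1 (-0.17), which also had narrow arrays, and diet E replicate 2 had 0.43. The part of array spread in these values was not separated from that of the birds. With array spread as a covariate, diet H minus diet A was -0.50 ± 0.15 for LY86 and -0.25 ± 0.14 for TLR4. In that fit the other differences were -0.41 ± 0.27 for TLR1B, -0.38 ± 0.28 for TLR7, -0.29 ± 0.33 for TLR2, -0.19 ± 0.17 for TLR2A, -0.12 ± 0.29 for TLR5, -0.09 ± 0.39 for TLR3 and 0.021 ± 0.31 for TLR1A.

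**Figure D3:**
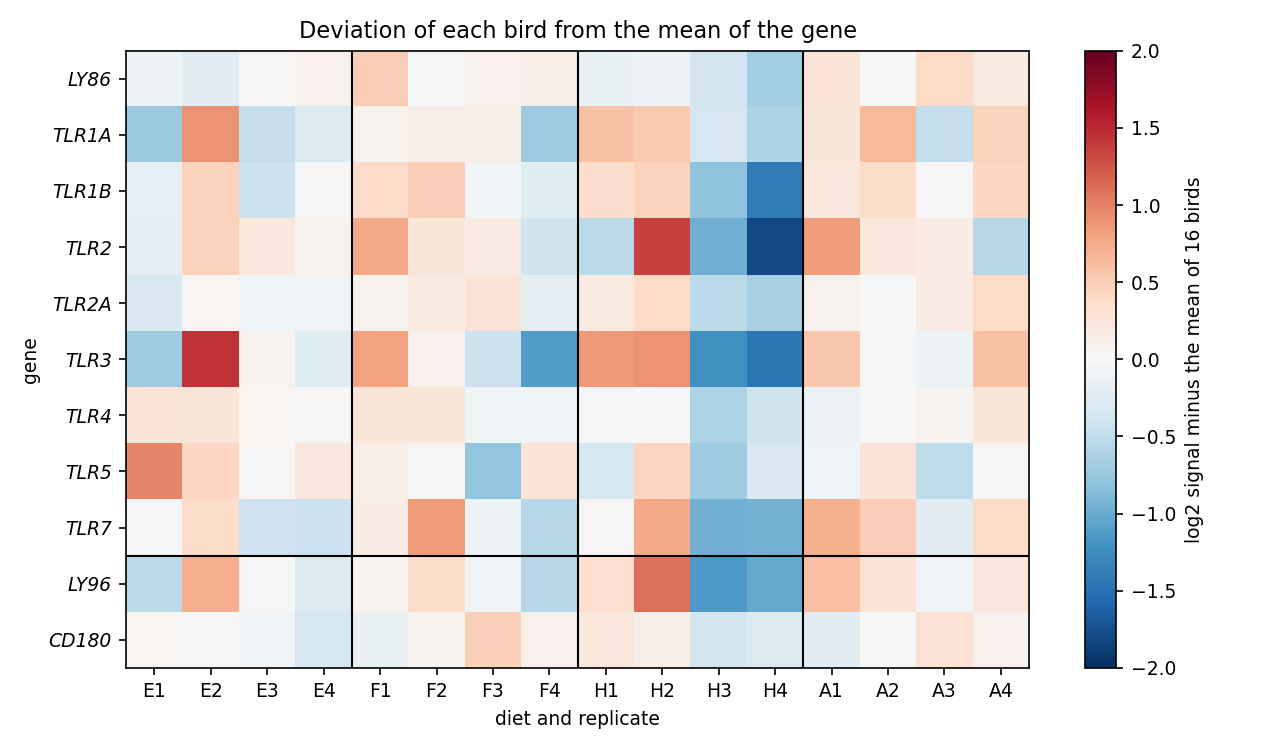
Log2 signal of each bird minus the mean of 16 birds (colour scale, -2 to 2) for the 9 genes and, under the line, LY96 and CD180; columns are birds, named by diet and replicate. Blue cells fill the columns H3 and H4, where the median deviations of the 9 genes are -0.70 and -0.69, and H2 is mostly red with a median of 0.46.

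Correlations across birds were computed for all pairs of the 9 genes. Over the 28 pairs of TLR genes the median Pearson r was 0.66 over 16 birds and 0.32 over 14 birds without diet H replicates 3 and 4. For LY86 with the 8 TLR genes the medians were 0.46 and -0.12. These r values share their birds and arrays and are given as a description. Highest over 14 birds were TLR1A with TLR1B (r = 0.84), TLR1B with TLR7 (r = 0.83) and TLR1A with TLR3 (r = 0.81). TLR4 with TLR2A was at -0.05 and TLR5 with TLR2A at -0.55. TLR1A lay under the 20th percentile on 5 arrays, and whether its probes tell it from TLR1B was not tested. The r of gene pairs in general was not computed for comparison.

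Of the genes whose proteins act directly with these receptors, LY96 and CD180 were followed bird by bird. LY96, the partner that lets TLR4 bind lipopolysaccharide, read 6.52, 7.29, 5.03 and 5.16 in diet H, against 6.78, 6.45, 6.11 and 6.41 in diet A, a difference of -0.44 ± 0.41 (adjusted p = 0.613 in limma), and 0.47 ± 0.34 without diet H replicates 3 and 4. CD180, the receptor that binds LY86, read 7.60, 7.49, 7.02 and 7.09 in diet H, against 7.17, 7.40, 7.67 and 7.47 in diet A, a difference of -0.13 ± 0.18 (adjusted p = 0.733), and 0.12 ± 0.19 without those birds. Both differences thus had the opposite sign without the 2 birds. Diet H replicates 3 and 4 were the lowest for LY96 and among the lowest for CD180. The relations across birds were tested as 1 family of 3, by permutation with Benjamini-Hochberg adjustment. LY86 and TLR4 had r = 0.54 (permutation p = 0.0355, adjusted p = 0.0533) and Spearman's rho = 0.20 (permutation p = 0.464, adjusted p = 0.464) over 16 birds. TLR4 and LY96 had r = 0.58 (permutation p = 0.0192, adjusted p = 0.0533) and rho = 0.36 (permutation p = 0.175, adjusted p = 0.464). LY86 and CD180 had r = 0.34 (permutation p = 0.204, adjusted p = 0.204) and rho = 0.23 (permutation p = 0.398, adjusted p = 0.464). Without diet H replicates 3 and 4, r was -0.07 for LY86 and TLR4, -0.00077 for TLR4 and LY96 and -0.11 for LY86 and CD180, so the positive r of each pair was not seen without these birds. With diet means subtracted over all 16 birds, r was 0.31, 0.66 and 0.15 in the same order, and TLR4 with LY96 then had adjusted p = 0.0154 by permutation. Spearman's rho of that pair was 0.56 in this setting (permutation, adjusted p = 0.079). The permutation exchanged values between diets, although both genes spread most in diet H. Diet means were not subtracted without diet H replicates 3 and 4, so a relation within diets apart from these birds was not tested. Without the 2 birds farthest from the median on the first gene of each pair, r was 0.29 for LY86 and TLR4, -0.00077 for TLR4 and LY96 and 0.31 for LY86 and CD180. For TLR4 these were again diet H replicates 3 and 4, so that value is the same as above.

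**Figure D4:**
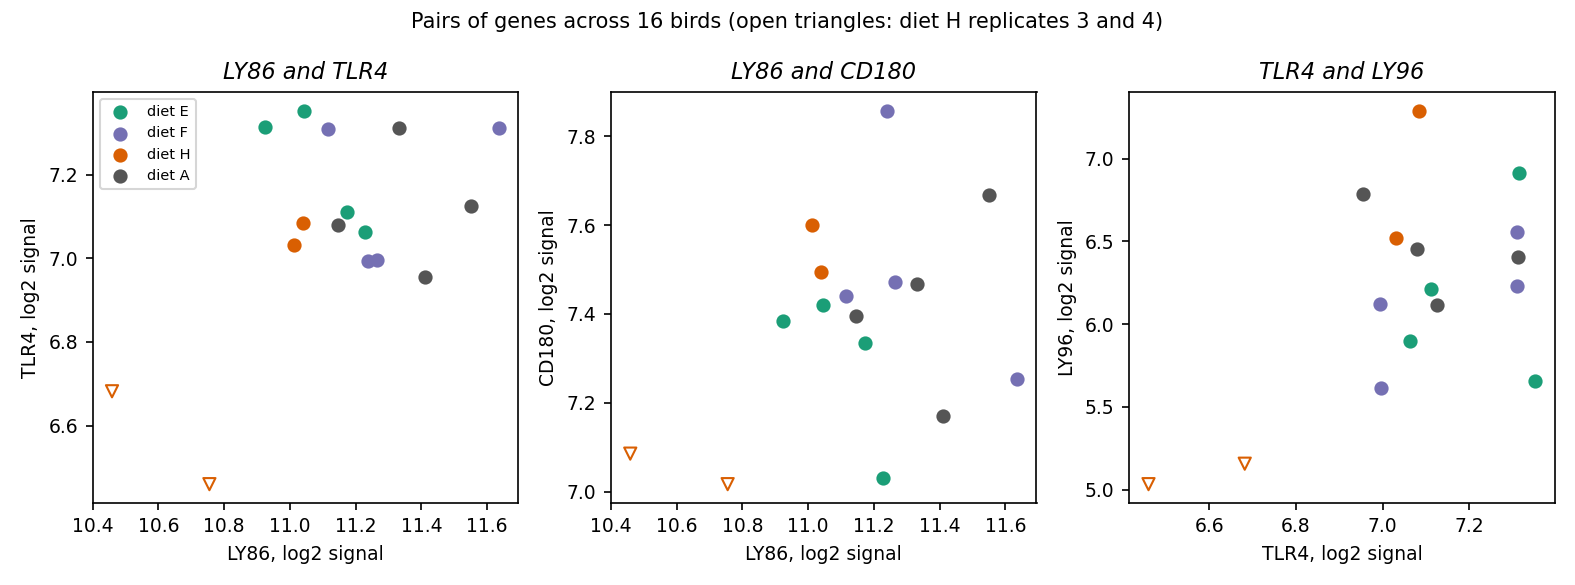
Log2 signals of 3 pairs of genes, 1 point per bird, coloured by diet, with diet H replicates 3 and 4 as open triangles (axes in log2 signal). In the LY86 and TLR4 panel and in the TLR4 and LY96 panel the triangles lie alone at the lower left; without them r is -0.07 and -0.00077 over 14 birds.

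The genes whose pattern over 16 birds was most like that of LY86, of 9445 named genes above the 20th percentile, were PIGL, an enzyme of glycolipid anchor synthesis (r = 0.83), PDIA5, a protein disulfide isomerase (0.82), OXSR1, a stress-responsive kinase (0.81), LYSMD2 (0.80) and TIMD4, a macrophage receptor for dying cells (0.80). Over 14 birds these r values were 0.70, 0.64, 0.71, 0.53 and 0.57. For TLR4 they were THOC7, a subunit of the mRNA export complex THO (0.88), SEPHS1 (0.88), ASB3 (0.88), PPP1R9A (0.86) and PRKAR1A, a regulatory subunit of protein kinase A (0.85), and over 14 birds 0.55, 0.67, 0.56, 0.61 and 0.41. The 95th percentile of r over all candidates was 0.64 for LY86 and 0.72 for TLR4, so high values were common.

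None of the genes in 5 lists covering the rest of the pathway passed the adjusted test, and differences between the lists were not tested. Of the co-receptors, ligand carriers and chaperones 6 of 9 were measured, with a median of -0.28 in diet H minus diet A and 4 of 6 lower. Adaptors and kinases, which relay the signal, had 19 of 27 measured and a median of -0.22 with 14 of 19 lower. Both medians had the opposite sign without diet H replicates 3 and 4, at 0.06 and 0.04. HSP90B1, the chaperone that folds TLR proteins, averaged 12.1 ± 0.71 in diet H and 12.7 ± 0.12 in diet A (SD, n = 4 each), and 12.7 in diet H replicates 1 and 2. UNC93B1, which carries TLR3 and TLR7 to endosomes, averaged 8.03 ± 0.56 in diet H and 7.57 ± 0.11 in diet A, and 7.55 in diet H replicates 1 and 2. MAP3K7, the kinase upstream of NF-kappaB, averaged 8.89 ± 0.49 in diet H and 9.33 ± 0.10 in diet A, and 9.30 in diet H replicates 1 and 2. SYK, a kinase of immune receptors, averaged 5.57 ± 0.39 in diet H and 5.87 ± 0.31 in diet A, and 5.80 in diet H replicates 1 and 2. Limma called 0 genes of either list in any comparison, and 0 lay under an unadjusted p of 0.05. Of all features 8.21% lay under it in diet H minus diet A and 1.35% to 2.72% in the other comparisons of diets.

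The other 3 lists had medians above 0 in diet H minus diet A, with and without the 2 birds. NF-kappaB, AP-1 and IRF transcription factors (8 of 12 measured) had a median of 0.29 with 6 of 8 higher, and 0.21 without the 2 birds. The lower genes were the measured NF-kappaB subunits, NFKB1 (-0.51 ± 0.31) and REL (-0.26 ± 0.22). Without the 2 birds NFKB1 was at 0.11 ± 0.29 and REL at 0.13 ± 0.22. Negative regulators (14 of 19 measured) had 0.18 with 8 of 14 higher, and 0.21 without them. Cytokines and effectors that TLR signals induce (14 of 27 measured, 2 of them under the 20th percentile on average) had 0.11 with 9 of 14 higher, and 0.15 without them. NFKBIA, the inhibitor that holds NF-kappaB in the cytoplasm and is itself induced by it, averaged 8.49 ± 0.35 in diet H and 7.77 ± 0.10 in diet A (SD, n = 4 each). The NFKBIA difference was 0.72 ± 0.22 with adjusted p = 0.521 in limma, and no diet H bird (8.07 to 8.89) overlapped a diet A bird (7.67 to 7.90). DUSP1, a phosphatase that switches off MAP kinases, averaged 7.92 ± 0.40 in diet H and 7.13 ± 0.15 in diet A, without overlap, and IRF7, an interferon regulatory factor, averaged 7.52 ± 0.39 in diet H and 6.92 ± 0.15 in diet A, also without overlap. Birds with no overlap in the higher direction were found for 1.27% of all features in this comparison. NFKBIA, DUSP1 and IRF7 were picked for the smallest F test p over the diets in their lists. Their lack of overlap is therefore no independent result, and the share is given as a description. In diet H replicates 1 and 2 alone NFKBIA averaged 8.23, DUSP1 7.57 and IRF7 7.20, each above the diet A range. The differences from diet A were then 0.46 ± 0.25, 0.44 ± 0.23 and 0.28 ± 0.20, each less than 2 standard errors. The F test that picked the genes used these birds too, so this is no independent result either. How many of all features show this layout of 2 birds was not counted. Diets E and F also averaged above diet A, at 8.23 and 8.19 for NFKBIA, 7.81 and 7.68 for DUSP1 and 7.25 and 7.11 for IRF7. For DUSP1 the diet E birds (7.69 to 8.03) did not overlap the diet A birds (6.98 to 7.30), a layout found for 1.49% of all features.

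IRF8, a factor of the macrophage lineage, averaged 9.79 ± 0.20 in diet H and 9.52 ± 0.15 in diet A. FOS, a subunit of AP-1, averaged 5.32 ± 0.33 in diet H and 4.82 ± 0.14 in diet A. FOS did not overlap (5.06 to 5.79 in diet H, 4.65 to 4.998 in diet A), a layout found for 1.27% of all features. It too was picked for its small F test p. SOCS3 averaged 9.17 ± 0.49 in diet H and 8.92 ± 0.98 in diet A, PTGS2, the inducible cyclooxygenase, 7.75 ± 0.78 in diet H and 8.04 ± 0.11 in diet A. The cytokine gene IL12B averaged 4.54 ± 0.19 in diet H and 4.83 ± 0.29 in diet A and the chemokine gene IL8L1 4.71 ± 0.26 in diet H and 4.39 ± 0.27 in diet A (SD, n = 4 each), both close to the dim end of the signals. Without diet H replicates 3 and 4 the differences from diet A were 0.26 ± 0.19 for IRF8, 0.26 ± 0.27 for FOS, 0.18 ± 0.46 for SOCS3, -0.40 ± 0.21 for IL12B and 0.12 ± 0.20 for IL8L1. PTGS2 differed by -0.29 ± 0.30 with all birds and by 0.34 ± 0.24 without the 2 birds, so its sign turned. FOS averaged 5.53 in diet E and 5.22 in diet F, so its lowest mean of all diets was in diet A. IL12B averaged 4.40 in diet E and 4.38 in diet F, so its highest mean was in diet A. Limma called 0 genes of these 3 lists after adjustment. In diet H minus diet A 2 transcription factors (FOS and IRF7) and 3 negative regulators (NFKBIA, DUSP1 and SOCS1) lay under an unadjusted p of 0.05, all higher in diet H, with 8.21% of all features under it. In diet E minus diet A the medians of the 5 pathway lists, from the co-receptors to the cytokines, were -0.06, -0.09, 0.17, 0.01 and 0.006, and in diet F minus diet A they were -0.04, -0.09, 0.16, 0.04 and 0.03. All genes had medians of 0.009 and 0.015 there.

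No marker gene of any cell type passed the adjusted test in any comparison, and the part of these cells in the LY86 and TLR values was not tested. Macrophage and Kupffer cell markers had a median of -0.09 in diet H minus diet A with 6 of 10 lower, and 0.07 without the 2 birds. Their mean log2 signal over the 10 genes ran from 9.38 to 9.88 in diet H and from 9.78 to 9.79 in diet A. The lower markers were MRC1 (-0.74 ± 0.28), SPI1 (-0.40 ± 0.34), NCF4 (-0.34 ± 0.28), TIMD4 (-0.28 ± 0.17), MARCO (-0.10 ± 0.18) and TREM2 (-0.07 ± 0.24). The higher ones were C1QC (0.22 ± 0.20), CTSS (0.19 ± 0.17), CD74 (0.13 ± 0.18) and LAPTM5 (0.11 ± 0.15). Without the 2 birds MRC1 was at -0.17 ± 0.23, TIMD4 at -0.0016 ± 0.15, SPI1 at 0.34 ± 0.26, NCF4 at 0.17 ± 0.27 and MARCO at 0.20 ± 0.17. The other 5 were then at -0.23 ± 0.30 for TREM2, 0.015 ± 0.23 for C1QC, 0.13 ± 0.19 for CTSS, -0.07 ± 0.21 for CD74 and 0.20 ± 0.17 for LAPTM5. T and NK cell markers (13 of 19 measured) had a median of 0.41 with 11 of 13 higher, and 0.43 without the 2 birds. Of the 13, 6 lay under an unadjusted p of 0.05, all higher in diet H, where 8.21% of all features did, and the list had mean signals of 6.37 to 6.85 in diet H and 6.16 to 6.31 in diet A. Diet F minus diet A had a median of 0.24 for this list, also with 11 of 13 higher, and diet E minus diet A 0.05 with 8 of 13 higher. Diet H minus diet F had a median of 0.12 with 7 of 13 higher. In diet H minus diet A, markers of B cells (7 of 15 measured), heterophils (5 of 15), thrombocytes (6 of 12), endothelium (11 of 15) and hepatocytes (11 of 12) had medians of 0.11, 0.23, 0.06, -0.11 and -0.02, and -0.18, -0.03, -0.06, -0.03 and 0.003 without the 2 birds. Under an unadjusted p of 0.05 lay 1 of 10 macrophage, 1 of 7 B cell and 1 of 11 endothelial markers, all lower in diet H. Of the 5 heterophil markers 1 higher and 1 lower gene lay under it, and no thrombocyte or hepatocyte marker did. Of the heterophil markers 4 of 5 were higher, but the brightest, LYG2, was at -1.44 ± 0.43, and -0.69 ± 0.44 without the 2 birds. Of the B cell markers 5 of 7 were higher, but the brightest, JCHAIN, was at -0.68 ± 0.32, and -0.36 ± 0.34 without them. Mean signals of B cell markers ran from 5.69 to 6.35 in diet H and from 5.78 to 6.13 in diet A, and those of hepatocyte markers from 13.1 to 13.3 in diet H and from 13.2 to 13.4 in diet A. Heterophil markers ran from 7.22 to 7.30 in diet H and from 7.16 to 7.39 in diet A, thrombocyte markers from 5.47 to 5.91 in diet H and from 5.65 to 5.79 in diet A, and endothelial markers from 7.87 to 7.95 in diet H and from 7.92 to 8.03 in diet A.

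**Figure D5:**
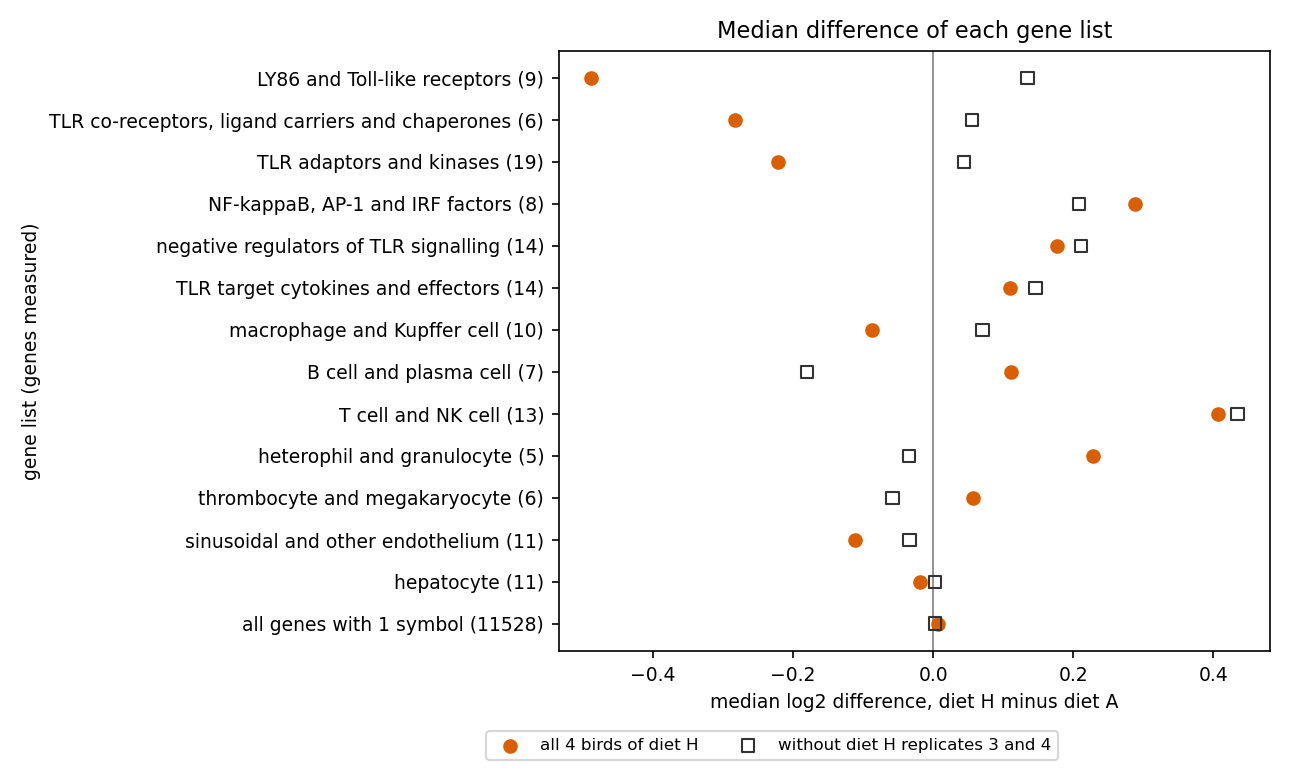
Median log2 difference of diet H minus diet A (horizontal axis) for each gene list (vertical axis, genes measured in brackets) and for all 11528 genes; filled circles use all 4 diet H birds and open squares leave out diet H replicates 3 and 4. The LY86 and TLR list is at -0.49 and 0.14, while the transcription factor list is at 0.29 and 0.21 and the T and NK cell list at 0.41 and 0.43.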

How the data were processed

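Liver RNA was measured on 1-colour Affymetrix arrays after whole-transcript amplification and biotin labelling, per the labels' protocols. The authors deposited log2 signals, judged from values that lie between 0.93 and 14.63. Software named per the submitters' processing notes is GCOS 1.1.1. Background correction and normalization are not stated there or in the labels. The design text counts birds per diet, so each array was taken as 1 bird, numbered in accession order. The platform annotation gives 1 gene symbol for 12300 of the 20804 features, several for 256 and none for 8248. All 9 members matched RefSeq by Entrez ID.

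One limma 3.58.1 model (R 4.3.3) with a mean per diet was fitted to all 16 arrays and all features, which left 12 residual degrees of freedom, to which the prior added 4.12. Tests were two-sided, with Benjamini-Hochberg adjustment over all features at 0.05, and errors of differences are standard errors of this model. Precision is limited by the number of arrays, and the median standard error was 0.216. The procedure was tested on simulated data with independent noise and changes added in diet E alone. That simulation had no arrays that stand apart, so it does not cover the diet H comparisons. Correlations used 100000 permutations (numpy 2.4.6), two-sided; of 5 pairs planned 3 had features. Alternatives were quantile normalization, a filter on dim features, a trended prior, the mean of all features of a gene, the 2 diets alone, the title number block, each bird left out, diet H replicates 3 and 4 left out and, chosen after seeing the data, array spread as a covariate and the gene lists and their genes without those 2 birds. Every member is named. Of each pathway list the gene with the highest mean and the 2 with the smallest F test p are named, with LY96 and CD180 as partners. The members and lists were chosen with earlier results of these data known.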

Additional observations from a re-analysis of the deposited data

Results flagged for a closer look

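TLR1A stood at 3.96 in diet F replicate 4, far below the other 3 birds of that diet (4.73 to 4.80). The gap made up 0.927 of the range of the group, above Dixon's 95% critical value for 4 values. Of the 36 groups examined (9 genes in 4 diets) this was the 1 that passed, and chance passes about 1 group in 20. The value lies under the 20th percentile of all signals (4.31).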

How the results depend on the processing

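No member was called in any comparison or in the F test under any alternative, leaving out each bird included (0 to 0 throughout). With both arrays that stand apart left out, the diet H minus diet A differences of TLR1A (0.34), TLR1B (0.15), TLR2 (0.26), TLR2A (0.14), TLR3 (0.62), TLR5 (0.11) and TLR7 (0.052) turned positive, those of LY86 and TLR4 shrank to -0.33 and -0.06, and r was -0.074 for LY86 and TLR4, -0.11 for LY86 and CD180 and -0.00077 for TLR4 and LY96. Array spread as a covariate turned TLR1A to 0.021 there, TLR2 (0.25) and TLR3 (0.19) in diet E minus diet A, TLR1B (0.041), TLR2A (0.021) and TLR5 (0.014) in diet F minus diet A and TLR3 (0.032) in diet H minus diet F. Without the 2 arrays TLR1B, TLR2, TLR2A, TLR3 and TLR7 also turned in diet H minus diet E, and these 5 with TLR5 in diet H minus diet F. For TLR4 and LY96 the 2 birds farthest from the median were diet H replicates 3 and 4 themselves, so that setting repeats r = -0.00077. The same pair had r = 0.66 (permutation, adjusted p = 0.0154) with diet means subtracted and those 2 birds included. Spearman's rho was 0.56 there (permutation, adjusted p = 0.079). Quantile normalization turned none of the diet H minus diet A differences of the 9 genes. Features at an unadjusted p under 0.05 in diet H minus diet A numbered 1708, against 3175 with the title number block, 900 with birds of the 2 diets alone and 468 without diet H replicates 3 and 4, and with the block 4 members were among them instead of 1. Leaving out 1 diet H bird gave 3181 features with 3 members (replicate 1), 6291 with 6 (replicate 2), 534 with 1 (replicate 3) and 582 with 1 (replicate 4). Without replicate 2 the smallest adjusted p of a member in limma was 0.110.

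With each bird left out, diet H minus diet A ran from -0.62 to -0.42 for LY86, -0.39 to -0.19 for TLR4 (highest without diet H replicate 3), -0.41 to 0.043 for TLR1A, -0.88 to -0.26 for TLR1B, -1.25 to -0.19 for TLR2, -0.50 to -0.14 for TLR2A, -0.86 to -0.08 for TLR3, -0.38 to -0.006 for TLR5 and -0.97 to -0.39 for TLR7. The highest values of TLR1A, TLR1B, TLR2, TLR2A and TLR3 came without diet H replicate 4 and those of TLR5 and TLR7 without diet H replicate 3. Diet F minus diet A ran from -0.15 to 0.020 for LY86 and -0.020 to 0.10 for TLR4. The correlations ran from 0.37 to 0.63 for LY86 and TLR4, 0.16 to 0.46 for LY86 and CD180 and 0.37 to 0.70 for TLR4 and LY96. By Pearson r, LY86 and TLR4 passed without diet A replicate 1, diet E replicates 1 or 2 or diet F replicate 2. TLR4 and LY96 passed by r without diet A replicate 1, diet E replicate 1, diet F replicate 2 or diet H replicate 2. All these settings kept diet H replicates 3 and 4. Spearman's rho passed in none of them, with adjusted p by permutation of 0.300 to 0.459 for LY86 and TLR4 and 0.175 to 0.435 for TLR4 and LY96. The cause of these changes was not tested. No paired analysis was possible because the labels give no replicate numbers shared between diets. The files give no background level, which limits TLR1A and TLR5 most.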
